A study of Mus musculus with 14 samples.

Results

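A set of 10 Wnt pathway genes was examined by RNA sequencing in all 7 conditions of the study. They were Wnt7b, Wnt7a and Wnt4 (secreted ligands), Lgr4 and Lgr5 (R-spondin receptors), Rnf43 and Znrf3 (membrane ubiquitin ligases), Axin2 and Nkd1 (inhibitors inside the cell) and Tcf7 (a DNA-binding partner of β-catenin). All 10 genes were among the 28022 genes of the deposited count table. The genes were chosen by name with earlier results of these data known, and which values chose them is not recorded, so their values are given as a description without p-values. A further 112 Wnt pathway genes, listed by role, gave the background and were tested.

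The study asked how induced hepatic stem cells (iHepSCs) change when they are grown in 3D and when induced endothelial cells (iECs) are added. Each condition had 2 libraries. Fib were the mouse embryonic fibroblasts, from C57BL/6J embryos, that served as starting cells. iHepSCs were made from such fibroblasts with lentiviral Oct4 and Hnf4α, so all 4 cultures below carried both transgenes. 2D-iH (labelled 2D-iHepSC) were iHepSCs in monolayer, and 2D-iHE (labelled 2D-iHepSCiEC) were iHepSCs in monolayer with iECs. iHLO (labelled 3D-iHA) were organoids of iHepSCs alone inside a hydrogel of type I collagen and Matrigel, and iHEA (labelled 3D-iHEA) were assembloids in which the hydrogel also held iECs. The iECs were human fibroblasts of the HF1 line converted with ETV2 and sorted on surface CD144 and CD31, so 2D-iHE and iHEA mixed human and mouse cells while reads were counted on mouse genes. The cultures were grown in a mixture of hepatic and endothelial medium with oncostatin M. CHIR99021, an inhibitor of GSK3 that activates β-catenin signalling, was used while iECs were induced, and its presence in the later culture medium was not settled by the sources used here. Adult liver from young adult mice and fetal liver, both C57BL/6J, were the tissue references.

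Total counts ranged from 20851489 to 35143325 per library, and 3 counts corresponded to 0.0751 to 0.204 CPM (counts scaled to the size of the library with TMM factors). No 2 libraries of a condition were identical or within counting noise of each other (chi-square per gene of 3.05 to 3.67 in 5 conditions, 11.50 in iHEA and 13.42 in fetal liver, where counting noise alone gives about 1). The titles number the 2 libraries of a condition while every description reads replicate 1, and nothing said whether the 2 libraries came from separate cultures or animals, so errors and p-values measure the spread between libraries, which may be technical. The first iHEA library stood apart from the second for Lgr5 and Wnt10a, as described with those genes. Hepatocyte markers summed to 297 to 405 CPM in the 4 cultures against 22100 to 26800 CPM in fetal liver. Of the 7 listed, Apoa1 had 5697 to 12149 counts in the culture libraries, Afp 439 to 1172 and Alb 2 to 210. Cps1 had 1 to 17 counts there, Serpina1a 0 to 3 and Tat 1 to 538. Ttr had 31 to 89 counts in the monolayers and 2252 to 2924 in 3D. Cholangiocyte markers summed to 1090 to 1510 CPM in the cultures, against 257 to 261 in adult and 53.1 to 62.1 in fetal liver. Among them Krt19 had 16159 to 31981 counts in the cultures and Sox9 31 to 279. The fibroblast marker list summed to 4.90 to 13.6 CPM in the cultures against 29500 CPM or more in Fib. Col1a1 had 9 to 441 counts in the cultures, and Lum and Thy1 had 0 counts in 2D-iHE, iHLO and iHEA.

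Wnt ligands are lipid-modified proteins that leave the cell with the help of Porcn and Wls and bind Frizzled receptors together with Lrp5 or Lrp6. In the β-catenin branch this stops the destruction complex, built on Axin and Apc, from degrading β-catenin, which then acts with TCF/LEF factors on target genes that include the pathway's own inhibitors Axin2, Nkd1, Rnf43 and Znrf3. R-spondins bind Lgr4, Lgr5 or Lgr6 and remove Rnf43 and Znrf3 from the membrane, so that Frizzled receptors stay there. In liver the pathway is known for setting the perivenous program of hepatocytes, with R-spondins and Wnt ligands coming from endothelial and mesenchymal cells.

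Wnt7b was the ligand with the highest level per kilobase in both monolayers, and its level was lower in both 3D cultures and higher wherever iECs were present. The gene lies on the minus strand (chr15:85535437-85582473, GRCm38) and is known for canonical signalling in epithelia such as lung and skin. 2D-iH had 2091 and 1956 counts (56.9 and 59.7 CPM), and 2D-iHE had 4169 and 2423 counts (104 and 100 CPM). iHLO had 379 and 345 counts (11.3 and 10.5 CPM), and iHEA had 871 and 704 counts (25.8 and 24.7 CPM). The libraries of the 4 cultures did not overlap, and their order was 2D-iHE, 2D-iH, iHEA, iHLO. Fetal liver followed with 33 and 76 counts, adult liver with 10 and 11 and Fib with 2 and 5. Every condition in this order was separated from the next, although fetal liver differed between its libraries (1.00 and 2.55 CPM). In the fitted model Wnt7b was 5.20-fold lower in iHLO than in 2D-iH (log2 fold change -2.38 ± 0.07, SE) and 3.96-fold lower in iHEA than in 2D-iHE (-1.98 ± 0.06). It was 1.77-fold higher in 2D-iHE than in 2D-iH (0.82 ± 0.05) and 2.32-fold higher in iHEA than in iHLO (1.22 ± 0.07). From bulk samples, fewer cells of a type and less RNA per cell cannot be told apart, and the share of human reads counted on mouse genes in 2D-iHE and iHEA was not tested. The antisense gene AU022754 overlaps Wnt7b, and the strand setting of the counting was not stated, so reads of the pair cannot be told apart.

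Wnt7a, the closest relative of Wnt7b, followed the same step between monolayer and 3D at a much lower level. The gene lies on the minus strand of chromosome 6 (chr6:91363981-91411363). The monolayers had 125 and 133 counts (2D-iH) and 173 and 94 (2D-iHE), and the 3D cultures had 16 and 11 (iHLO) and 16 and 15 (iHEA). Fib had 0 counts in both libraries, adult liver had 1 and 1, and fetal liver had 4 and 6. Monolayers and 3D cultures did not overlap, whereas 2D-iHE overlapped 2D-iH and iHEA overlapped iHLO. Wnt7a was 8.84-fold lower in iHLO than in 2D-iH (log2 fold change -3.14 ± 0.26, SE) and 8.04-fold lower in iHEA than in 2D-iHE (-3.01 ± 0.25). The difference with iECs was 0.16 ± 0.19 in 2D and 0.30 ± 0.35 in 3D on the log2 scale, both near their error. Against Fib, with 0 counts, 2D-iH were at least 83.35-fold higher at a floor of 3 counts over the group.

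Wnt4 moved the other way and was the ligand with the highest level per kilobase in both 3D cultures. It lies on the plus strand of chromosome 4 (chr4:137277489-137299726) and is best known for roles in kidney and gonad formation. Wnt4 counts were 389 and 387 for 2D-iH (10.6 and 11.8 CPM) and 401 and 249 for 2D-iHE (10 and 10.3 CPM). They were 1796 and 1972 for iHLO (53.3 and 60 CPM) and 2664 and 1714 for iHEA (78.8 and 60.1 CPM). All 3D libraries were above all monolayer libraries, and the second iHEA library lay close to the upper iHLO library. Wnt4 was 5.22-fold higher in iHLO than in 2D-iH (log2 fold change 2.38 ± 0.12, SE) and 7.02-fold higher in iHEA than in 2D-iHE (2.81 ± 0.12). The difference between iHEA and iHLO (0.30 ± 0.10) was 0.10 without the first iHEA library and 0.47 without the second, so 1 library decided its size. Fib had 130 and 134 counts, adult liver 75 and 83 and fetal liver 104 and 113, and the CPM of Fib and fetal liver overlapped.

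**Figure D1:**
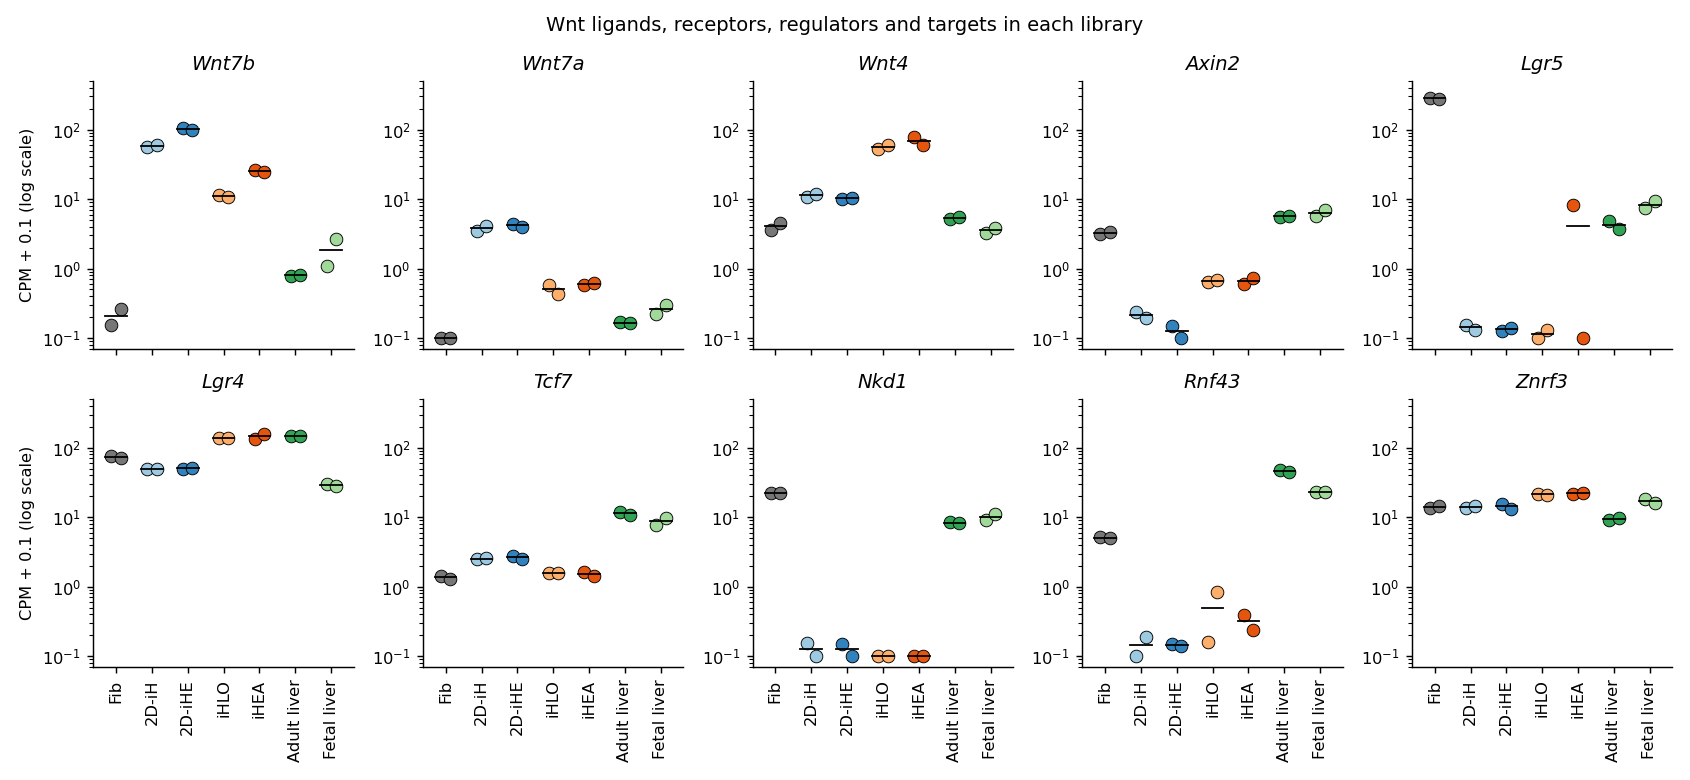
Level of the 10 genes in each of the 14 libraries, as CPM plus 0.1 on a log axis, with 1 point per library and a bar at the condition mean. Wnt7b and Wnt7a step down and Wnt4 and Lgr4 step up from the monolayers (2D-iH, 2D-iHE) to the 3D cultures (iHLO, iHEA), Axin2, Nkd1 and Rnf43 lie lower in all 4 cultures than in Fib and liver, and Lgr5 differs between the 2 iHEA libraries (275 and 0 counts).

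Summed over the 19 Wnt ligands in RPKM (the CPM per kilobase of gene, from the union of annotated exons), the total of the 4 cultures differed less than its makeup. The summed ligand level was 20 ± 0.456 RPKM (SD, n = 2) in 2D-iH, 27.9 ± 0.873 in 2D-iHE, 23.3 ± 0.478 in iHLO and 27.9 ± 4.38 in iHEA. Wnt7b made up 59.7% of this sum in 2D-iH and 74.7% in 2D-iHE, but 9.54% in iHLO and 18.6% in iHEA. Wnt4 made up 13.4% and 8.68% in the monolayers and 58.0% and 59.2% in iHLO and iHEA. Wnt16 led in Fib with 77.6% of the sum, Wnt5b in adult liver with 77.7% and Wnt2 in fetal liver with 21.9%. The sum itself was 130 RPKM in Fib, 23.7 in adult liver and 7.63 in fetal liver, a wider range than among the cultures. The shares are within libraries and do not depend on the scaling between libraries. Wnt16 had 15840 and 13709 counts in Fib and 0 to 3 in every culture library, and Wnt5a, a ligand known for β-catenin-independent signalling, had 4693 and 3858 counts in Fib and 34 to 193 in the cultures. Wnt2 and Wnt9b, ligands that liver endothelial cells are known to make, had 0 counts in all 8 culture libraries. In the 4 cultures 0 counts over a group still allow up to 3 counts. The iECs were human and reads were counted on mouse genes, so ligand transcripts of the iECs need not be seen.

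Among the 16 ligands outside the chosen genes, 4 passed the filter on low counts in the cultures, and Wnt11 rose while Wnt9a and Wnt5a fell in 3D. Calls were made with edgeR's quasi-likelihood test at a Benjamini-Hochberg adjusted p under 0.05 over all 13409 genes tested. Wnt11, known for cell movement and planar polarity, had 289 and 244 counts in 2D-iH and 988 and 866 in iHLO, a rise by a log2 fold change of 1.90 ± 0.08 (SE, adjusted p = 3.49e-10). Between 2D-iHE and iHEA it rose by 2.13 ± 0.10 (adjusted p = 4.88e-10). Wnt9a was 5.85-fold lower in iHLO than in 2D-iH (adjusted p = 1.09e-06), with 26 and 20 counts against 179 and 114. Wnt5a was 4.61-fold lower in iHLO than in 2D-iH (adjusted p = 2.01e-06) and 2.16-fold lower in iHEA than in 2D-iHE (adjusted p = 0.000776). Wnt10a, named here after its values were seen, had 115 counts in the first iHEA library and 2 in the second, and 0 to 3 in the other 6 culture libraries.

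**Figure D2:**
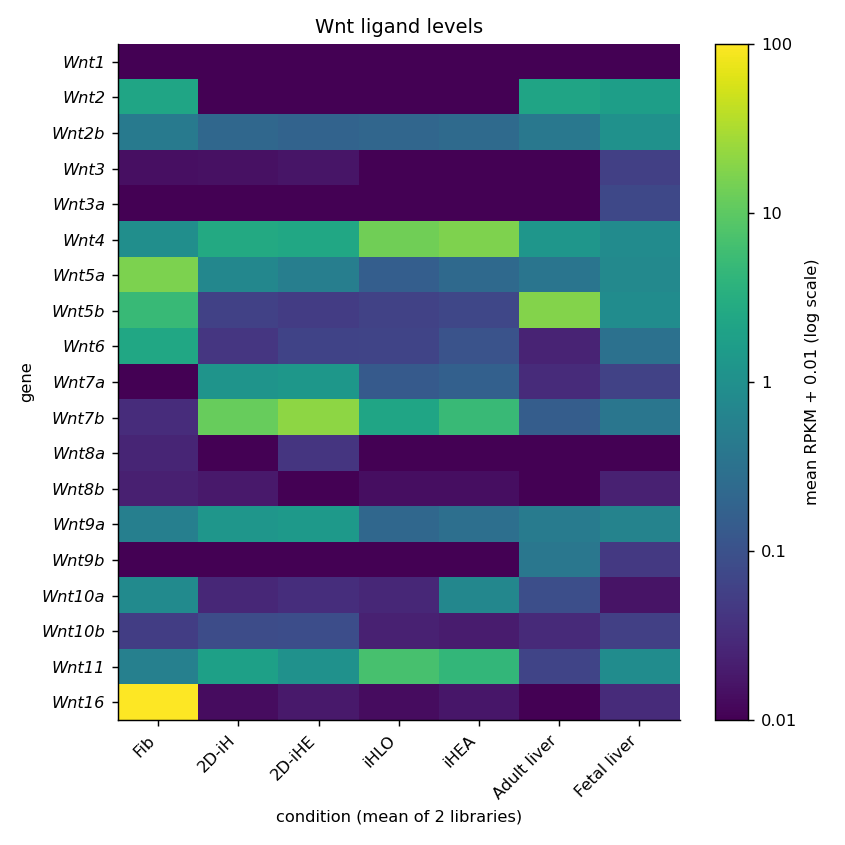
Mean level of the 19 Wnt ligands in the 7 conditions, in RPKM plus 0.01 on a log colour scale, each cell the mean of 2 libraries. Wnt7b is the brightest ligand in 2D-iH and 2D-iHE, Wnt4 in iHLO and iHEA, Wnt16 in Fib (101 RPKM) and Wnt5b in adult liver (18.4 RPKM), and the Wnt10a cell of iHEA comes from 1 of its 2 libraries.

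The genes that modify and export Wnt proteins were measured in all cultures. Porcn, the acyltransferase that attaches the lipid, was lower in both 3D cultures than in their monolayers. Porcn counts were 1410 and 1132 for 2D-iH, 2856 and 1593 for 2D-iHE, 619 and 654 for iHLO and 885 and 603 for iHEA. Porcn fell by a log2 fold change of 0.89 in iHLO against 2D-iH (SE 0.09, adjusted p = 1.37e-06, edgeR) and was 2.83-fold lower in iHEA than in 2D-iHE (adjusted p = 5.05e-09). Between iHEA and iHLO it did not pass the test (log2 fold change 0.31 ± 0.09, SE, adjusted p = 0.131). Wls, the carrier that brings Wnt proteins to the cell surface, rose by 0.47 ± 0.05 (SE, adjusted p = 1.39e-06) and 0.41 ± 0.05 (adjusted p = 5.81e-06) in the same comparisons. Notum, an enzyme that removes the lipid from secreted Wnt proteins, had 12 to 35 counts in the culture libraries and 309 and 375 in adult liver.

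Lgr4 was the R-spondin receptor of the cultures, and it was higher in 3D. It lies on the plus strand of chromosome 2 (chr2:109917647-110014257). The monolayers had 1786 and 1609 counts of Lgr4 (2D-iH) and 1949 and 1249 (2D-iHE), and the 3D cultures had 4682 and 4582 (iHLO) and 4527 and 4560 (iHEA). In CPM the monolayers ranged from 48.6 to 51.5 and the 3D cultures from 134 to 160, with no overlap between them and overlap within each pair. The log2 fold change was 1.55 ± 0.08 (SE, 2.94-fold higher) in iHLO against 2D-iH and 1.59 ± 0.08 (3.00-fold higher) in iHEA against 2D-iHE. With and without iECs it differed by 0.05 ± 0.08 in 2D and 0.08 ± 0.07 in 3D. Fib had 72.9 ± 4.03 CPM (SD, n = 2), between monolayers and 3D cultures, and fetal liver had the lowest level of all conditions (28.8 ± 1.15 CPM).

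Lgr5, a marker of intestinal and other epithelial stem cells, was at or near 0 in 7 of the 8 culture libraries. It lies on the minus strand of chromosome 10 (chr10:115450311-115587780), where A930009A15Rik overlaps it on the other strand. Lgr5 had 10581 and 8518 counts in Fib, 2 and 1 in 2D-iH, 1 and 1 in 2D-iHE and 0 and 1 in iHLO. The first iHEA library had 275 counts and the second had 0. Without the first library, no culture library held more than 2 counts of Lgr5, and no statement on iHEA can be drawn from its mean of 4.07 ± 5.75 CPM (SD, n = 2). The same library also held more Wnt10a, Tat (538 against 62 counts) and Postn (43 against 0 counts), genes chosen after their values were seen. Adult liver had 69 and 55 counts and fetal liver 238 and 276. The count ratio of Fib over 2D-iH was 6569, with an exact 95% interval of 2247 to 31860 that covers counting error only.

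The membrane ligases that Lgr4 and Lgr5 act on differed from each other in the cultures. Znrf3 (chr11:5276324-5444847, minus strand) was measured well in every condition, with 320 to 731 counts in the culture libraries. It was 1.58-fold higher in iHLO than in 2D-iH (log2 fold change 0.66 ± 0.08, SE) and 1.56-fold higher in iHEA than in 2D-iHE (0.64 ± 0.08). The CPM of the 3D libraries was 20.6 to 22.4 and that of the monolayers 13.2 to 15.2, with no overlap, and Fib lay among the monolayers. Rnf43 (chr11:87662722-87735539, plus strand) was near 0 in the monolayers, with 0 and 3 counts (2D-iH) and 2 and 1 (2D-iHE), and low in 3D, with 2 and 24 (iHLO) and 10 and 4 (iHEA). Fib had 186 and 151 counts and the liver libraries 678 to 751. The iHLO libraries differed from each other by more than iHLO differed from iHEA. Per kilobase, Znrf3 was 2.68 ± 0.101 RPKM (SD, n = 2) and Rnf43 0.0602 ± 0.0724 RPKM in iHLO, whereas in adult liver Rnf43 was 7.08 ± 0.374 and Znrf3 1.18 ± 0.0425 RPKM.

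Mouse transcripts of R-spondins, the ligands of these receptors, were not detectable in the cultures beyond a few counts. The iECs were human and reads were counted on mouse genes, so R-spondin transcripts of the iECs need not be seen. Rspo3 had 0 counts in all 8 culture libraries, 469 and 372 in Fib, 74 and 74 in adult liver and 341 and 386 in fetal liver. Rspo2 had 13508 and 11070 counts in Fib and 0 or 1 in each culture library. Rspo1 had 1 count over the 8 libraries together and Rspo4 had at most 6 in one. None of the 5 other genes of this group passed the filter in the culture fit, so none was tested there.

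Of 15 listed secreted antagonists, 5 passed the filter in the cultures. Wif1 and Sost passed it only through the 3D libraries, where they were high, so their difference was fixed by the filter and is given without a test. Wif1, which binds Wnt proteins outside the cell, had 0 or 1 count in each monolayer library, 52 and 126 in iHLO and 97 and 338 in iHEA. Sost, which binds Lrp5 and Lrp6, had 1 or 2 counts in each monolayer library, 40 and 86 in iHLO and 39 and 17 in iHEA. Both had more counts in every 3D library than in every monolayer library, and their 3D libraries differed widely within a condition. The other 3, Frzb, Kremen1 and Apcdd1, were counted in all cultures and rose in iHLO against 2D-iH (edgeR). Frzb, a Frizzled-related decoy, rose by a log2 fold change of 2.09 ± 0.31 (SE, adjusted p = 4.65e-05) in iHLO and 1.77 ± 0.30 (adjusted p = 0.000173) in iHEA. Kremen1 rose in iHEA as well, and Apcdd1 did not pass the test there (-0.25 ± 0.14, adjusted p = 0.127). Kremen1 and Apcdd1 are membrane proteins, a receptor for Dkk proteins and an inhibitor at the cell surface. Sfrp1 had 19221 and 15623 counts in Fib and 0 to 4 in the culture libraries, and Dkk3 had 5269 and 4376 in Fib and 0 to 2 in the cultures, so neither was tested there.

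**Figure D3:**
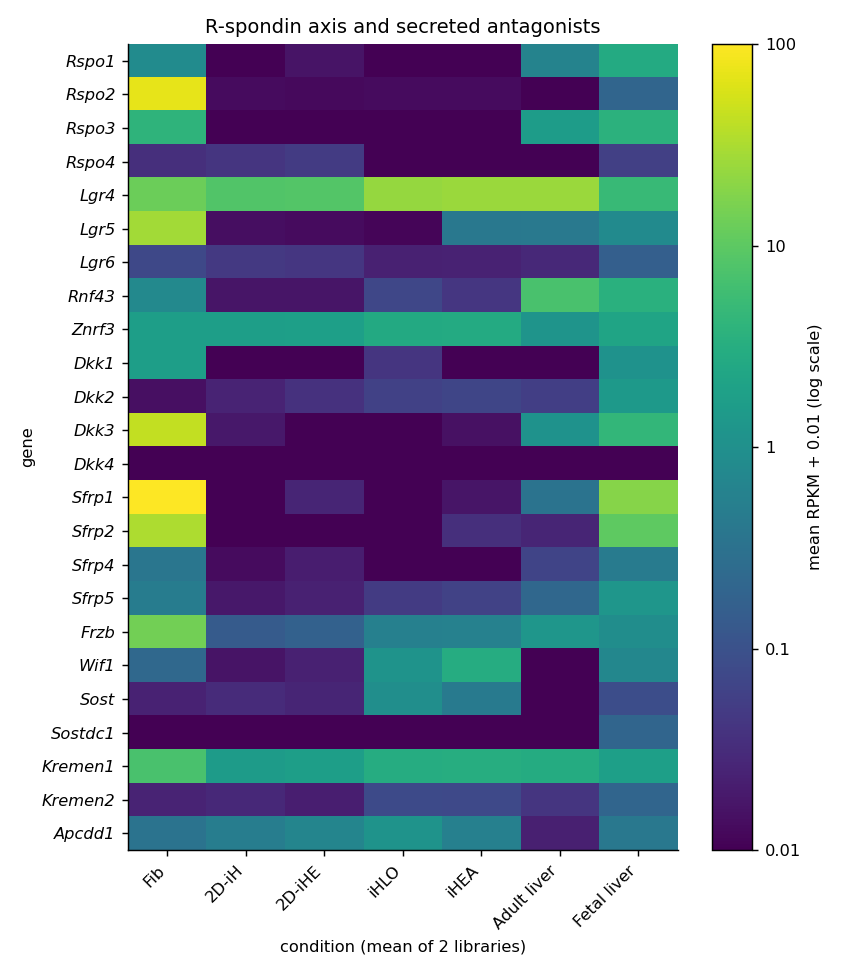
Mean level of the 9 genes of the R-spondin axis and the 15 secreted antagonists in the 7 conditions, in RPKM plus 0.01 on a log colour scale, each cell the mean of 2 libraries. Lgr4 and Znrf3 are seen in every condition, Rspo2, Sfrp1 and Dkk3 stand out in Fib and are dark in the 4 cultures, and Wif1 and Sost appear in iHLO and iHEA and are dark in 2D-iH and 2D-iHE.

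Among Frizzled receptors and co-receptors, 16 of 18 listed genes passed the filter, and both directions were found. In iHLO against 2D-iH 5 rose and 7 fell, beside 36.9% and 35.3% of all genes tested, and in iHEA against 2D-iHE 6 rose and 10 fell, beside 36.0% and 34.9%. Fzd4, a receptor known in vessels, had 458 and 445 counts (2D-iH) and 519 and 328 (2D-iHE) in the monolayers, and 2582 and 2459 (iHLO) and 1893 and 1632 (iHEA) in 3D. It rose 6.00-fold in iHLO (adjusted p = 2.51e-12, edgeR) and 4.38-fold in iHEA (adjusted p = 1.53e-11). Summed endothelial markers were also higher in the organoids without iECs, at 1210 to 1340 CPM in iHLO against 471 to 478 in 2D-iH. Of the 8 markers, Vwf had 22039 and 25206 counts in iHLO, Tek 3892 and 3906 and Tie1 394 and 451, all above 2D-iH. Cdh5, which encodes CD144, had 14002 and 14321 counts in iHLO and 16261 and 14322 in 2D-iH. Pecam1 (14 and 22 counts) and Kdr (2 and 4 counts) were low in iHLO, and the part of these markers in the Fzd4 result was not tested. Fzd8 and Fzd3 rose 3.50-fold (adjusted p = 2.51e-06) and 3.30-fold (adjusted p = 5.34e-06) in iHLO. Ror1, a receptor of Wnt5a, had 54 to 105 counts in the monolayer libraries and 0 to 4 in the 3D libraries, and it passed the filter only through the monolayers, so no test is given for it, though it is among the receptors counted as lower. The co-receptor Lrp5, at 6949 and 6450 counts in 2D-iH, was 1.41-fold lower in iHLO (adjusted p = 4.51e-06).

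Axin2, a scaffold of the destruction complex and a direct target used to read out β-catenin activity, was low in all 4 cultures, and lowest in the monolayers. It lies on the plus strand of chromosome 11 (chr11:108920349-108950783), with the antisense gene Gm11670 on the other strand. The monolayers had 5 and 3 counts (2D-iH) and 2 and 0 (2D-iHE), and the 3D cultures had 18 and 19 (iHLO) and 17 and 18 (iHEA). Fib had 110 and 100 counts, adult liver 81 and 86 and fetal liver 184 and 207. All 3D libraries were above all monolayer libraries and below all Fib and liver libraries. The count ratio of iHLO over 2D-iH was 4.83 (exact 95% interval 2.21 to 12.01), that of iHEA over 2D-iHE 18.0 (4.63 to 155) and that of iHEA over iHLO 1.01 (0.618 to 1.65). Fib exceeded 2D-iH by a ratio of 27.1 (13.5 to 63.6). These intervals cover counting error only, and Axin2 did not pass the filter of the culture fit.

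Nkd1, which binds Dishevelled and is likewise induced by the pathway, had no more than 2 counts in any culture library. It lies on the plus strand of chromosome 8 (chr8:88521354-88594884). Nkd1 had 2 and 0 counts in 2D-iH, 2 and 0 in 2D-iHE and 0 in all 4 libraries of iHLO and iHEA, so no fold between cultures can be given. Fib had 824 and 687 counts, adult liver 124 and 123 and fetal liver 295 and 332. The count ratio of Fib over 2D-iH was 780 (exact 95% interval 215 to 6443, for counting error only), on 2 counts over both 2D-iH libraries.

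The upstream sequence of Axin2 and of Wnt4 is shown because Axin2 is the widely used target gene whose counts stepped up from monolayer to 3D and Wnt4 the ligand with the highest level in 3D. Each run holds the 250 bases before the RefSeq start of the gene (GRCm38.p6), 5′ to 3′ on the gene's strand. For Wnt4 that start lies inside the GENCODE gene given above, so the run overlaps its first bases. The first lies at chr11:108920099-108920348 and the second at chr4:137277385-137277634, both on the plus strand.
Axin2: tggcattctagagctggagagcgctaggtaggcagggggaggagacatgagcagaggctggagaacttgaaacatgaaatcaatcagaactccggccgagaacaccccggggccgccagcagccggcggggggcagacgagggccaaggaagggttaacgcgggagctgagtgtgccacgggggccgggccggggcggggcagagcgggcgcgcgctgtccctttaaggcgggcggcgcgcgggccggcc
Wnt4: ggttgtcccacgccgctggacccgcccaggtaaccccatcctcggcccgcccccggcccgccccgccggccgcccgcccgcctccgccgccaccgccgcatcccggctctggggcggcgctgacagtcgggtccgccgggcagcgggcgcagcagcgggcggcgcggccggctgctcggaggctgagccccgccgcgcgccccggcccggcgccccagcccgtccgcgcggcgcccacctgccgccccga
Neither run holds the TCF/LEF core CTTTGAA or CTTTGAT on either strand, so no base is in capitals. The core was absent from all 9 promoters that were found for 7 of the 10 genes (Lgr4, Wnt4, Wnt7a, Nkd1, Tcf7, Rnf43 and Axin2). Of all 32851 promoters, 7.48% held it in the same 250 bases, and 9 promoters are too few to tell absence from that share. The window says nothing of sites further away or in introns. G and C made up 69.2% of the bases for Axin2 and 85.2% for Wnt4. No promoter was used for Wnt7b, Lgr5 and Znrf3.

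Tcf7, one of the TCF/LEF factors, was low and slightly lower in 3D. It lies on the minus strand of chromosome 11 (chr11:52252371-52283014). The monolayers had 88 and 81 counts (2D-iH) and 108 and 59 (2D-iHE), the 3D cultures had 50 and 48 (iHLO) and 51 and 38 (iHEA), and the liver libraries had 166 to 286. In CPM the monolayers (2.40 to 2.70) and 3D cultures (1.33 to 1.51) did not overlap, and iHEA, but not iHLO, overlapped Fib (1.18 and 1.34). Tcf7 was 1.60-fold lower in iHLO than in 2D-iH (log2 fold change -0.68 ± 0.20, SE) and 1.77-fold lower in iHEA than in 2D-iHE (-0.82 ± 0.21). Of the other nuclear factors, 9 of 11 passed the filter, 8 rose in iHLO and 7 in iHEA against their monolayers (beside 36.9% and 36.0% of all genes tested), and Pygo2 fell in both (adjusted p = 7.47e-05 and 3.26e-05, edgeR). Tcf7l2, the TCF factor with the highest counts in the cultures, rose by 0.77 ± 0.07 (SE, adjusted p = 5.85e-07) in iHLO and by 1.25 ± 0.08 (adjusted p = 7.86e-09) in iHEA. Lef1 had 0 to 7 counts in the culture libraries.

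Other target genes did not move in one direction. Ccnd1, a cyclin of G1 phase that other pathways also drive, had 22983 and 20849 counts in 2D-iH and 3786 and 3372 in iHLO. It fell 5.70-fold in iHLO (adjusted p = 8.96e-12, edgeR) and 6.60-fold in iHEA (adjusted p = 5.52e-12). Cd44 and Myc also fell in both, Ephb3 rose in both, and Cdx2 rose in iHEA (log2 fold change 0.82 ± 0.07, SE, adjusted p = 3.51e-07) but was at 0.04 ± 0.07 in iHLO (adjusted p = 0.597). Of the perivenous liver targets, 4 of 8 passed the filter. Glul, the glutamine synthetase of perivenous hepatocytes, had 6477 and 5834 counts in 2D-iH and 14201 and 13665 in iHLO and rose by 1.28 ± 0.05 (SE, adjusted p = 5.52e-11), and by 1.15 ± 0.05 in iHEA (adjusted p = 1.66e-10). Tbx3 rose and Oat fell in both comparisons. In the cytoplasmic relay none of the 16 tested genes changed by 2-fold or more at the threshold. Over all genes tested 13.4% rose and 11.3% fell by 2-fold in iHLO, and 12.6% and 11.5% in iHEA. Without the 2-fold cut, 4 relay genes rose and 5 fell in iHLO, beside 36.9% and 35.3% of all genes tested. In iHEA 3 rose and 6 fell, beside 36.0% and 34.9%. Ctnnb1, which encodes β-catenin, had 17025 to 29218 counts in the culture libraries and was 1.20-fold higher in iHEA than in 2D-iHE (adjusted p = 0.000193). In the planar polarity group 4 of 7 tested genes rose in each comparison, beside 36.9% and 36.0% of all genes tested, and Daam1 fell. Celsr1 rose most (5.51-fold in iHLO, adjusted p = 1.73e-12, edgeR).

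Of the 10 chosen genes, 6 passed the filter of the culture fit, and in iHLO against 2D-iH 3 of them were higher and 3 lower past the threshold. Over all genes tested 36.9% were higher and 35.3% lower in that comparison, and 13.4% and 11.3% were so with a change of at least 2-fold, which held for 2 and 2 of the chosen genes. In iHEA against 2D-iHE the counts of chosen genes were again 3 and 3, with 2 and 2 at 2-fold, beside 36.0% higher and 34.9% lower over all genes and 12.6% and 11.5% at 2-fold. Nothing is read from these counts, since the genes were chosen with the results known. Of the 112 other Wnt genes, 69 were tested, of which 31 rose and 21 fell in iHLO against 2D-iH and 30 rose and 25 fell in iHEA against 2D-iHE. These counts include Wif1, Sost and Ror1, which passed the filter through 1 side of the comparison. Their median log2 fold change was 0.12 and 0.11, beside 0.01 and 0.01 over all genes tested.

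**Figure D4:**
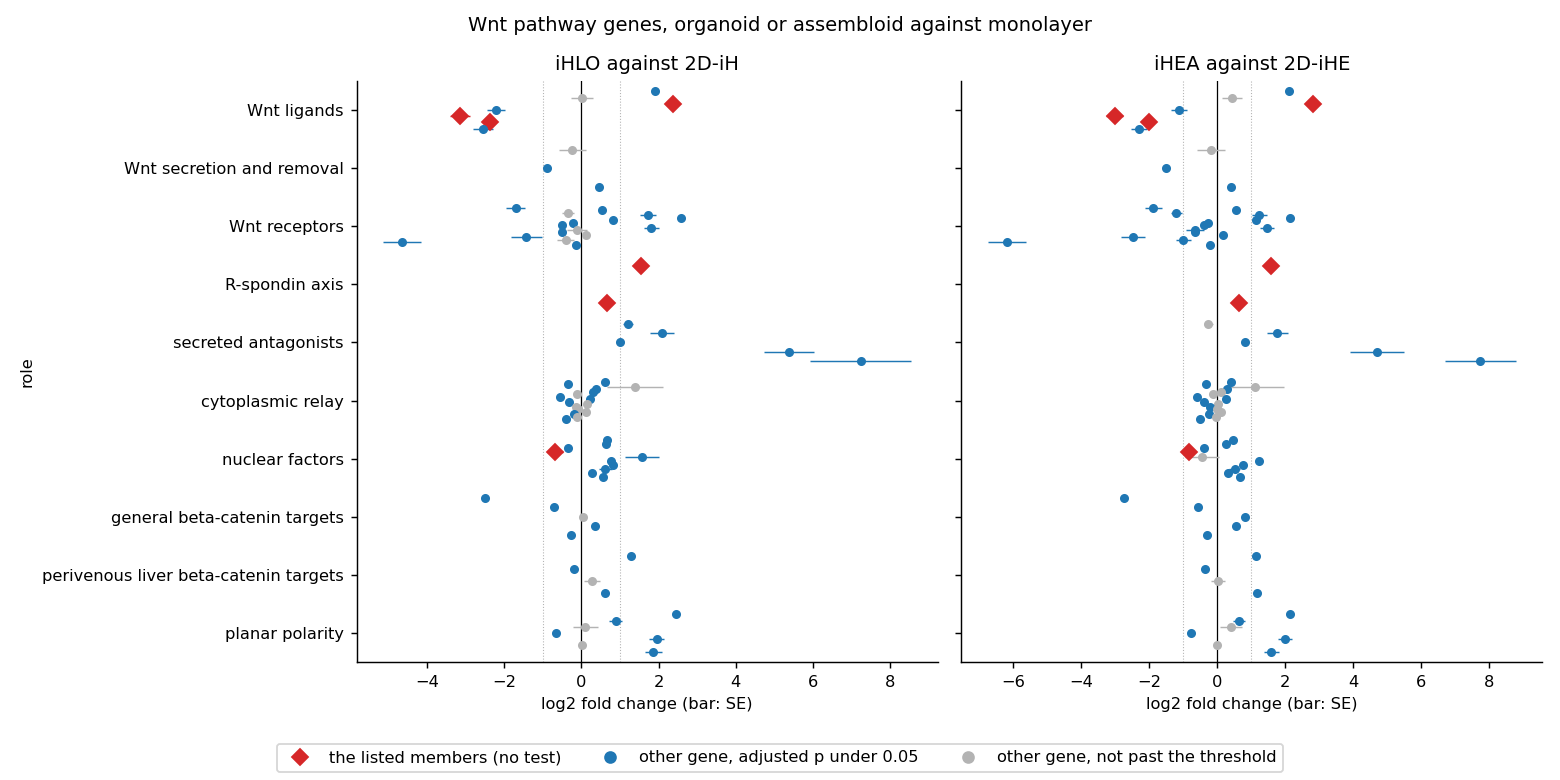
Log2 fold change with its SE of the tested Wnt pathway genes by role, for iHLO against 2D-iH (left) and iHEA against 2D-iHE (right), with red diamonds for the chosen genes, blue points for other genes past the threshold and grey points for the rest. Wnt7b and Wnt7a lie left of 0 and Wnt4 and Lgr4 right of 0 in both panels, and the points farthest to the right are Wif1 and Sost, which passed the filter on low counts only through the 3D libraries.

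With iECs added, 59 of the 69 other Wnt genes tested did not pass the test in 2D and 66 did not in 3D, which does not show that they were equal. In 2D-iHE against 2D-iH, 1 of the 6 chosen genes was higher past the threshold and 0 were lower, beside 4.26% and 3.92% of all genes tested. In iHEA against iHLO the counts were also 1 and 0, beside 1.19% and 1.07%. The counted gene was Wnt7b both times, and nothing is read from these counts, since the genes were chosen with the results known. Over all genes tested, the effect of iECs differed between 3D and 2D for 3.14% in either direction, and among the other Wnt genes for 5 of 69. Among the 69 other genes tested, 6 rose and 4 fell with iECs in 2D (edgeR). Porcn rose by 0.93 ± 0.08 (SE, adjusted p = 4.57e-05), Fzd2 by 0.87 ± 0.15 (adjusted p = 0.00376) and Celsr1 by 0.38 ± 0.06 (adjusted p = 0.00322), and Ptk7, Bcl9 and Bcl9l rose as well. Fibroblast markers summed to 11.9 to 13.6 CPM in 2D-iHE against 4.90 to 5.46 in 2D-iH. Of these, Col1a1 had 441 and 234 counts against 93 and 93, while Col3a1, Thy1 and Lum had 0 counts in 2D-iHE. The part of these markers in the rises was not tested. Wnt11 fell by 0.83 (SE 0.11, adjusted p = 0.000533), Tbx3 by 0.67 (SE 0.11, adjusted p = 0.00293) and Cdx2 by 0.54 (SE 0.07, adjusted p = 0.000680), and Tcf7l2 fell as well. Of these 10 calls, 6 were lost under at least 1 other setting: those of Ptk7, Fzd2, Bcl9, Bcl9l, Tcf7l2 and Celsr1, each without the first 2D-iHE library (adjusted p = 0.0722 to 0.353).

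In 3D, 0 of the 69 genes rose and 3 fell with iECs in iHEA against iHLO by edgeR. At an unadjusted p under 0.05 the numbers were 5 and 9, and DESeq2 also called 0 higher. Wnt11 fell by 0.61 (SE 0.08, adjusted p = 0.00122), Fzd4 by 0.42 (SE 0.06, adjusted p = 0.00243) and Apcdd1, a membrane inhibitor of Wnt signalling, by 1.01 (SE 0.13, adjusted p = 0.00158). The endothelial marker list was lower in the same comparison, at 870 to 937 CPM in iHEA against 1210 to 1340 in iHLO, and its part in these falls was not tested. Apcdd1 had 538 and 411 counts in iHLO and 233 and 205 in iHEA. Without the first iHEA library, the number of genes that rose was 3, and without the second it was 1.

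**Figure D5:**
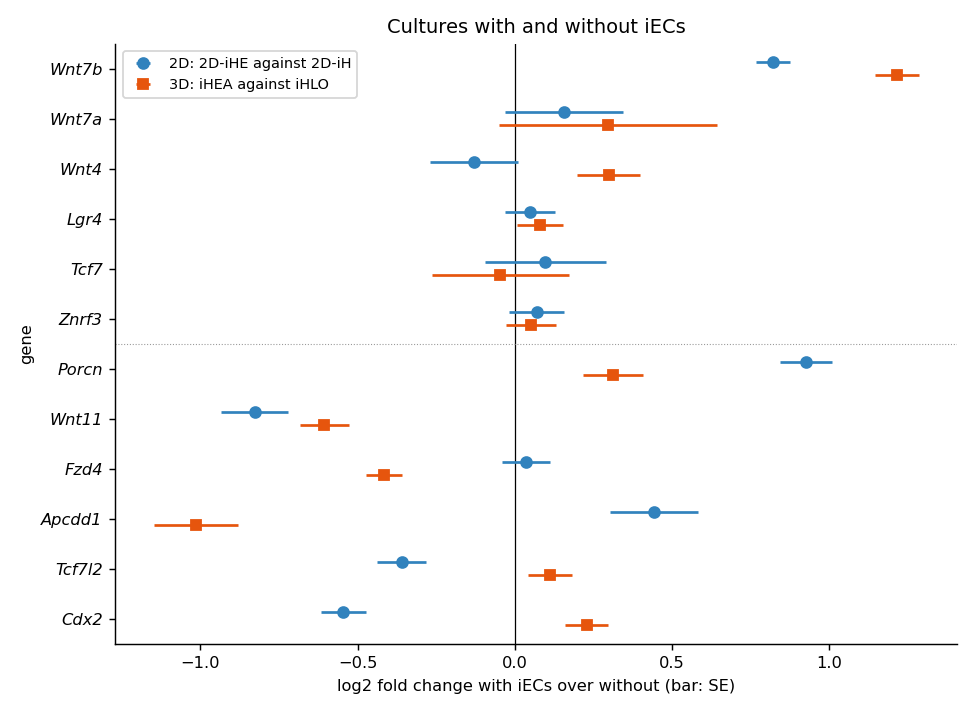
Log2 fold change with iECs over without, with its SE, in 2D (2D-iHE against 2D-iH, circles) and in 3D (iHEA against iHLO, squares), for the 6 chosen genes that passed the filter (above the dotted line) and 6 other Wnt pathway genes. Wnt7b lies at 0.82 in 2D and 1.22 in 3D, Porcn at 0.93 and 0.31, and Apcdd1, Tcf7l2 and Cdx2 lie on opposite sides of 0 in 2D and 3D.

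Against the fibroblasts they came from, 2D-iH had more Wnt7b, Wnt7a and Wnt4 and less Lgr5, Axin2, Nkd1 and Rnf43. In the fit of all 14 libraries all 10 chosen genes passed the filter, and 4 were higher and 5 lower past the threshold, beside 45.7% and 38.2% of the 14121 genes tested. Lgr5, Nkd1, Rnf43 and Axin2 passed that filter through Fib and liver, where they were high, and nothing is read from the counts of chosen genes here either. Wnt7b was higher by 9.07 ± 0.27 (SE) on the log2 scale, with 2 and 5 counts in Fib, and Wnt4 was 2.83-fold higher. Tcf7 was higher by 0.94 ± 0.20, Lgr4 lower with a log2 fold change of -0.58 ± 0.07, and Znrf3 was at -0.02 ± 0.09. Of the 80 other genes tested, 25 rose and 50 fell, and the falls include genes such as Rspo3, Sfrp1 and Dkk3 that passed the filter only through Fib or liver. Of 16 tested receptors 14 fell, among them Ptk7 (240-fold, adjusted p = 1.26e-15, edgeR), Fzd8 (101-fold, adjusted p = 2.47e-16) and Fzd2 (43.9-fold, adjusted p = 9.29e-13), while Lrp5 and Fzd6 rose. The fibroblast marker list fell over the same libraries, and its part in these results was not tested.

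Adult and fetal liver were compared with the caution that their difference depends on scaling. Alb alone took 8113083 and 7888792 counts of the adult libraries. The mean log2 TMM factor of adult liver minus that of fetal liver was -1.42, and log2 fold changes shift by about this amount without the factors. With the factors, 4 of the 10 chosen genes were higher and 2 lower in adult liver, beside 40.0% and 43.8% of all genes tested, and again nothing is read from these counts. Lgr4 was higher in adult liver under both scalings (log2 fold change 2.38 ± 0.08, SE, and 0.93 without factors), with 149 and 145 CPM against 29.7 and 28.0. Znrf3 was lower under both (-0.84 ± 0.11 and -2.29). Wnt7b was also lower under both (-1.28 ± 0.45 and -2.72), and its value without the second fetal library was -0.50. Wnt4 (0.63 ± 0.22), Tcf7 (0.44 ± 0.15) and Rnf43 (1.06 ± 0.18) were higher with the factors and lower without them (-0.82, -1.02 and -0.40). Axin2 (-0.14 ± 0.18), Nkd1 (-0.26 ± 0.17) and Lgr5 (-0.96 ± 0.69) differed by less than 2 standard errors with the factors. Without the factors they were lower (-1.59, -1.71 and -2.41). The error of Lgr5 comes from a fit that includes the iHEA libraries with 275 and 0 counts. With the factors, Lgr5 had 4.69 and 3.59 CPM in adult liver and 7.23 and 9.26 in fetal liver, without overlap. The count ratio of adult over fetal liver was 0.504 for Lgr5 (exact 95% interval 0.411 to 0.614). It was 0.823 for Nkd1 (0.707 to 0.955) and 0.892 for Axin2 (0.740 to 1.07). These intervals cover counting error only. Of the 80 other genes tested, 22 were higher and 50 lower in adult liver, against 11 higher and 68 lower without the factors. Marker lists of other cell types also differed between the livers: erythroid markers summed to 16300 to 16600 CPM in fetal and 277 to 303 in adult liver, fibroblast markers to 1920 to 3170 and 488 to 524, and macrophage markers to 177 to 207 and 888 to 929. Their part in these results was not tested. Wnt5b, with 721 and 750 counts in adult and 60 and 82 in fetal liver, was 21.96-fold higher in adult liver with the factors (adjusted p = 1.84e-12, edgeR).

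The genes whose pattern over the 7 condition means was most like that of Wnt7b, among 14121 genes, were Mast1 (Pearson's r = 0.999), Glipr1 (0.993), 3110053B16Rik (0.991), Trim40 (0.987) and Itga6 (0.987). Glipr1 had 3242 and 2720 counts in 2D-iH, 963 and 967 in iHLO and 27 and 16 in Fib. Itga6, an integrin of epithelial basal surfaces, had 12346 and 10405 counts in 2D-iH, 3985 and 3613 in iHLO and 233 and 181 in Fib. Those most like Axin2 were Bach2 (r = 0.996), Gtf3c6 (0.988), A430033K04Rik (0.986), Sparcl1 (0.986) and Tbccd1 (0.982). Bach2 had 0 to 2 counts in the monolayer libraries, 8 to 19 in the 3D libraries and 242 and 276 in fetal liver. The points are 7 condition means that share libraries and scaling, so the correlations are a description.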

How the data were processed

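RNA-seq counts of 14 libraries were used, 2 for each of 7 conditions taken from the labels. According to the authors, total RNA was sequenced as paired reads, trimmed with Trimmomatic 0.36, aligned to the mouse genome (GRCm38, mm10) with HISAT2 and counted per gene with HTSeq. The deposited values are whole-number counts without normalization. Which annotation release was used, and how strand and multi-mapped reads were handled, is not given in the sources used here. The second iHEA column carries 2 conflicting numbers, so it was kept in its group but given none.

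The 10 genes and the lists were chosen with earlier results of these data known. Differences were fitted with edgeR 4.0.16 in R 4.3.3 (TMM factors, quasi-likelihood F test, two-sided, Benjamini-Hochberg adjustment over all genes tested, threshold 0.05) on genes whose log2(count + 1) averaged 3 or more. The 8 culture libraries were fitted with 1 term per condition (13409 genes), and Fib and liver in a fit of all 14 (14121 genes). The standard error is the log2 fold change over the root of the F statistic. CPM uses TMM factors over 14 libraries, and RPKM divides it by the union exon length in the GENCODE annotation of GRCm38. For genes with few counts in a group, count ratios with exact 95% intervals were given, or bounds from 3 counts over a group at 0. The test code was run on simulated counts with the same spread for all genes and conditions. The spread of the real libraries was unequal, so that run does not measure their error rates. Genes could be named if, for their role and comparison, they were among the 3 largest rises or 3 largest falls of called genes with separate groups, or were a Wnt ligand, Frizzled or R-spondin gene. Only some of these are described, a choice made with their values known, and other genes are named where a result turns on them. Alternatives were other size factors, other filters, DESeq2 1.42.0, other libraries in the fit, a replicate block and leaving out each library. Promoters come from RefSeq (GRCm38.p6).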

Additional observations from a re-analysis of the deposited data

Results flagged for a closer look

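A total of 5 Wnt pathway genes outside the chosen set had an effect of iECs that differed between 3D and 2D by the test of the difference itself (edgeR, 69 genes of the list tested, 3.14% of all 13409 genes past the threshold). Apcdd1 was at 0.44 with iECs in 2D and fell by 1.01 in 3D, a difference of -1.46 ± 0.19 (SE, adjusted p = 0.00185) on the log2 scale. Cdx2 fell by 0.54 in 2D and was at 0.23 in 3D, a difference of 0.77 ± 0.10 (adjusted p = 0.00162). For Porcn the difference was -0.61 ± 0.13 (adjusted p = 0.0209), for Fzd4 -0.45 ± 0.10 (adjusted p = 0.0232) and for Tcf7l2 0.47 ± 0.10 (adjusted p = 0.0300). The calls of Apcdd1 and Cdx2 held under each of the 14 alternatives run, and those of Porcn, Fzd4 and Tcf7l2 were lost in 6, 5 and 6 of them, each time when 1 library was left out (adjusted p = 0.0546 to 0.177). The share of human reads in the cultures with iECs was not tested. Groups of 2 libraries were too small to look for single libraries far from the others by a rule.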

How the results depend on the processing

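Of 597 log2 fold changes of the chosen genes under an alternative, 541 moved by less than 1 standard error, 53 moved by more and 3 reversed. The largest shift, by 3.49, was that of Rnf43 in 2D-iH against Fib without the second 2D-iH library (-10.22 against -6.73), which leaves a library at 0 counts, so that the fitted value is no bound. All reversals were in adult against fetal liver with total counts in place of TMM factors, an alternative chosen after seeing the data: Wnt4 -0.82, Tcf7 -1.02 and Rnf43 -0.40 among the chosen genes, and Lrp6 -0.97, Kremen1 -0.71, Frzb -0.92, Ctnnbip1 -0.44, Tle2 -0.38, Bcl9l -0.46 and Ccnd1 -0.53 among the others. Of 168 counts of called genes, 138 stayed within 1.5 times. Without a filter, iHEA against iHLO had 3 higher and 5 lower, 2D-iHE against 2D-iH 7 lower, and the difference of the iEC effects 6 higher and 6 lower. With all 14 libraries in the fit, 2 were higher in 2D-iHE against 2D-iH. With total counts, 11 were higher and 68 lower in adult against fetal liver, beside 22 and 50 with the factors. When 1 library was left out, the number higher ranged from 0 to 3 in iHEA against iHLO, from 1 to 4 in 2D-iHE against 2D-iH and from 1 to 4 for the difference of the iEC effects, and the number lower for the latter from 1 to 7.

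The library numbers did not pair the samples, with correlations of the deviations of -0.070 to 0.048 over 15 pairs of conditions. With the replicate block, 10 were higher and 7 lower in 2D-iHE against 2D-iH, and the same libraries without the block gave 10 and 8. The block could not be fitted with iHEA, whose second library has no number. The cause of these shifts was not tested. Depth limits Axin2, Nkd1 and Rnf43 in the cultures, with 24 counts or fewer per library, and Lgr5 outside the first iHEA library.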
